A study of Mus musculus with 26 samples.

Results

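The MEF2 family was measured as mRNA in C2C12, mouse myoblasts that stop dividing and form myotubes once serum is lowered. Its members were taken by name as Mef2a, Mef2b, Mef2c and Mef2d, which are 4 of the 55341 genes in the count tables, and each was described over treatment and time in all 26 RNA-Seq libraries. In the knockdown experiment, 18 libraries came from cells transfected with siCtrl, a control siRNA, or with siSMYD3#1 or siSMYD3#2, which are directed against Smyd3, in consecutive rounds, and collected at 0 h and at 24 h in differentiation medium, with 3 libraries per condition. In the overexpression experiment, 8 libraries came from SMYD3 CL5, a single retrovirally transduced clone with HA- and Flag-tagged SMYD3, and from sub-cloned cells with the empty vector, at the same time points, with 2 libraries per condition. SMYD3 is a lysine methyltransferase, and the comparisons address which genes follow its level during myogenesis. In each siRNA condition 1 library was extracted with TRIzol and 2 with NucleoSpin columns, and per the study's sample list the TRIzol set also came from an earlier cell passage, so extraction and passage cannot be told apart. All 8 overexpression libraries were extracted with TRIzol. The study names its libraries biological replicates, and p-values measure the spread between these samples. In bulk RNA, fewer cells that express a gene and less of its RNA per cell cannot be told apart.

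MEF2 proteins are MADS-box transcription factors that bind an A/T-rich site in the control regions of muscle genes, alone or together with the MyoD family of basic helix-loop-helix (bHLH) factors and their E-protein partners. In undifferentiated myoblasts, class IIa histone deacetylases hold MEF2-bound genes silent. Kinases such as p38 and CaMK, with the phosphatase calcineurin, raise MEF2 activity. The genes themselves are switched on in sequence in muscle. Mef2a and Mef2d are broadly expressed, Mef2c is best known from heart, skeletal muscle and brain, and Mef2b from B cells.

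On GRCm38, GENCODE M21 places Mef2a (ENSMUSG00000030557) on the minus strand of chr7:67231163-67372858, Mef2b (ENSMUSG00000079033) on the plus strand of chr8:70139711-70167488, Mef2c (ENSMUSG00000005583) on the plus strand of chr13:83504034-83667080 and Mef2d (ENSMUSG00000001419) on the plus strand of chr3:88142372-88172086. Mef2a shares 302 of its 14681 exon bases with Lysmd4 on the opposite strand, Mef2d shares 531 of 5985 with 1700113A16Rik on the opposite strand, and Mef2b shares 62 of 1404 with Borcs8 on the same strand. The kit marks strand, but whether the counting used it is not given in the sources used here, so a small part of the Mef2a and Mef2d counts is uncertain. Mef2b and Borcs8 lie on the same strand, so strand would not separate them. 1700113A16Rik had 4 to 38 counts per library and Lysmd4 had 110 to 807, both well under their MEF2 neighbours. Borcs8 had 286 to 1838 counts, which is far above Mef2b, and the uncertain part of the Mef2b counts was not measured.

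The promoters of the 2 members that moved in these data are shown from 100 bases before the start to 30 bases after it (RefSeq, GRCm38.p6), because the family is defined by the DNA it binds. Capitals mark a MEF2 site, or the hexamers CCCTCC and GAGGGG on either strand, which have been described as sequences SMYD3 can bind. Mef2a lies at chr7:67372829-67372958 on the minus strand, and Mef2d at chr3:88142272-88142401 on the plus strand.
Mef2a: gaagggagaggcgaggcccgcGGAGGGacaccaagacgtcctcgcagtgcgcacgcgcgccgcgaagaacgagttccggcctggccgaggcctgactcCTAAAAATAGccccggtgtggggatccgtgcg
Mef2d: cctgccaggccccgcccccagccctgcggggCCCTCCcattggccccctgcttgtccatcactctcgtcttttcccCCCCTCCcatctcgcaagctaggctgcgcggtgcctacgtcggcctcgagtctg
In the 300-base windows (250 before and 50 after the start), Mef2a held 1 MEF2 site, CTAAAAATAG, whose first base lies at -2, across the start itself. A MEF2 site was present in 3.19% of all 32851 promoter windows, and none was found in the windows of Mef2b, Mef2d or the 3 starts of Mef2c. The hexamer CCCTCC, found in 39.2% of windows, occurred 1 time in Mef2a and 3 times in Mef2d, and GAGGGG, found in 32.9%, occurred 0 times in Mef2a and 1 time in Mef2d, overlapping a CCCTCC. The E-box CANNTG, the site of the bHLH partners, lay in 72.3% of windows but in neither Mef2a nor Mef2d, and it occurred 2 times in Mef2b and 3 times over the windows of Mef2c, which also held 3 CCCTCC and 1 GAGGGG. These matches are descriptions of the letters and not of binding.

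The siRNAs are shown with the seed of their antisense strand (bases 2 to 8) in capitals, since a short seed match is how an siRNA can touch a transcript it was not made for.
siSMYD3#1: gUUGGGGUcacagcuguga
siSMYD3#2: uCAAAUCUucaaucaggcu
siCtrl: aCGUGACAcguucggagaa
The full sense strands of siSMYD3#1 and siSMYD3#2 matched transcripts of Smyd3 and of no other gene, and siCtrl matched none. No seed match to any of the 3 siRNAs was found in the 12 annotated transcripts of Mef2a. In Mef2c, 22 of 31 transcripts held a match to the siSMYD3#1 seed and 3 held one to the siSMYD3#2 seed, and in Mef2d 2 of 7 transcripts held one for each. A match to the siSMYD3#1 seed was present in 29.0% of 15732 tested genes, to the siSMYD3#2 seed in 27.7%, and to the siCtrl seed in 9.39%.

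Total counts were 14315193 to 60398170 in the siRNA libraries and 21124675 to 67853386 in the overexpression libraries. Levels are given in CPM, counts scaled to library size with TMM factors. The targeted gene was checked first. In siCtrl, Smyd3 was at 17.8 to 21.6 CPM over both times, and with siSMYD3#2 it was at 5.37 to 9.65 CPM, which was 1.41 ± 0.16 (SE) lower on the log2 scale at 0 h and 1.51 ± 0.17 lower at 24 h (adjusted p = 5.06e-05 at 24 h, edgeR). With siSMYD3#1 it was at 15.1 to 19.3 CPM, and its differences of -0.16 ± 0.16 at 0 h and -0.24 ± 0.16 at 24 h did not pass the test (adjusted p = 0.414 at 24 h, edgeR). The Smyd3 mRNA counts in libraries labelled siSMYD3#1 therefore do not show the knockdown that the label names, and directions below that rest on these libraries carry that limit. The study also examined SMYD3 protein by western blot and Smyd3 mRNA by qPCR after knockdown, and those measurements were not compared here. In SMYD3 CL5 the Smyd3 count gave 0.36 ± 0.27 against the vector at 24 h (adjusted p = 0.671, edgeR), and whether transgene reads enter this count is not known. The study checked the tagged SMYD3 protein in its clones by western blot and immunofluorescence, which were not compared here. Of the 5 myoblast markers, all averaged at least 1 CPM in both experiments, with a summed level of 351 to 2650 CPM in the siRNA libraries, while leukocyte markers summed to at most 0.175 CPM and neuron markers to at most 0.776 CPM in any library. Adipocyte markers summed to 2.36 to 6.56 CPM in the siRNA libraries and 12.3 to 39.1 CPM in the overexpression libraries, with Lep at 0 throughout, osteoblast markers to at most 3.59 CPM with Ibsp at 0, and endothelial markers to at most 3.81 CPM. The part of these other cell types in the results was not tested.

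In the siRNA experiment Mef2a had the largest changes of the members that were called. In siCtrl cells it stood at 65.6, 96.6 and 108 CPM at 0 h and at 242, 262 and 288 CPM at 24 h. The lowest value at 24 h was more than the highest at 0 h, and the low library at each time was the TRIzol one. With siSMYD3#1 the values were 51.4, 83.8 and 86.2 CPM at 0 h and 131, 133 and 135 CPM at 24 h. With siSMYD3#2 they were 55.1, 70.0 and 91.0 CPM at 0 h and 134, 144 and 169 CPM at 24 h. In both siSMYD3 groups the TRIzol library was the lowest at 0 h and the highest at 24 h. At 24 h no library of either siSMYD3 group reached the lowest siCtrl library, whereas at 0 h the 3 groups overlapped.

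**Figure D1:**
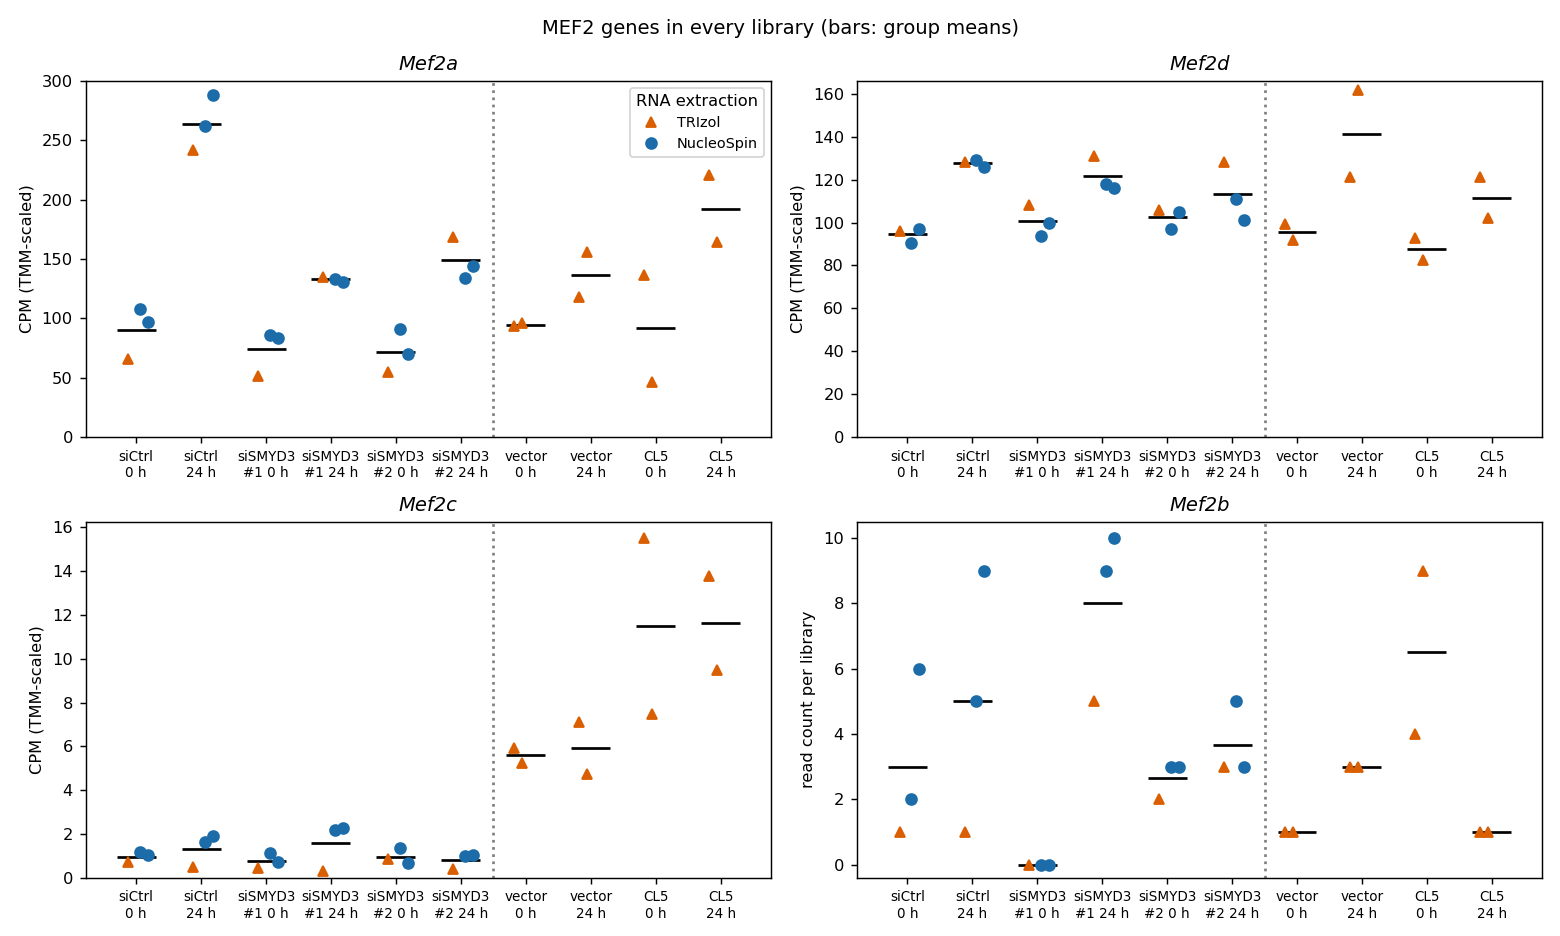
MEF2 mRNA in each of the 26 libraries. Each point is a library, shaped and coloured by RNA extraction, and each bar is the mean of a condition; the y axes give TMM-scaled CPM for Mef2a, Mef2d and Mef2c and read counts for Mef2b, and the dotted line separates the siRNA from the overexpression experiment. The 3 siCtrl libraries at 24 h sit between 242 and 288 CPM for Mef2a, above every other library.

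In siCtrl cells Mef2a rose between 0 h and 24 h by 1.57 ± 0.18 on the log2 scale, a 2.97-fold change (adjusted p = 3.57e-06, edgeR's quasi-likelihood test over 15820 genes). Mef2d rose as well, so 2 of the 3 members tested were called, where 29.4% of all genes tested were called in this comparison. Mef2a also rose with siSMYD3#1, by 0.88 ± 0.18 (adjusted p = 0.000984, edgeR), where 2 of 3 members and 25.4% of genes were called. It rose with siSMYD3#2 by 1.08 ± 0.18 (adjusted p = 0.000289, edgeR), where 1 of 3 members and 19% of genes were called. Each siRNA group therefore showed a Mef2a rise of its own, 1.84-fold with siSMYD3#1 and 2.11-fold with siSMYD3#2. With NucleoSpin libraries alone these rises were smaller on the log2 scale, 0.62 and 0.75, and stayed called (adjusted p = 0.000196 and 5.61e-05, edgeR). The siCtrl rise was then 1.41. The siSMYD3#1 rise lost its call without the TRIzol library of siSMYD3#1 at 0 h (0.70, adjusted p = 0.0105, edgeR), in 1 fit of all 26 libraries (0.0257) and with no extraction term (0.0166), and the siSMYD3#2 rise lost it in 1 fit of all 26 (0.0116).

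At 24 h Mef2a was lower with either siRNA than with siCtrl. With siSMYD3#1 it fell by 0.98 ± 0.17 on the log2 scale, from a mean of 264 to 133 CPM (adjusted p = 0.00144, edgeR), and it was the 1 member of 3 called, where 5.85% of genes were called. With siSMYD3#2 it fell by 0.81 ± 0.17, to a mean of 149 CPM (adjusted p = 0.00831, edgeR), again as the 1 member of 3 called, where 3.7% of genes were called. The second value lies close to the threshold of 0.01. Leaving out 1 library ended the siSMYD3#2 call for 13 of the 18 libraries, with differences from -1.08 to -0.68 over all 18 and adjusted p up to 0.0728 (edgeR). It ended the siSMYD3#1 call for 4, NucleoSpin or TRIzol libraries of the 24 h groups (siCtrl replicates 1 and 3, siSMYD3#1 replicates 2 and 3), with values of -0.92 to -0.96 and adjusted p of 0.0102 to 0.0161 (edgeR). With the replicate number as a block in place of extraction, the siSMYD3#2 difference was -0.81 with an adjusted p of 0.0123 (edgeR), which is no longer a call. Within the NucleoSpin libraries alone it was -0.99 (adjusted p = 1.2e-05, edgeR), and the TRIzol library of siSMYD3#2, at 169 CPM, is the one of the 3 nearest to siCtrl. The siSMYD3#1 and siSMYD3#2 libraries differed from each other at 24 h by -0.17, with a 95% interval from -0.54 to 0.20 (adjusted p = 0.622, edgeR), and 0 of 3 members were called, where 3.36% of genes were; 0 members passed at an unadjusted p under 0.05 and 0 with DESeq2.

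At 0 h the Mef2a differences from siCtrl were -0.29 ± 0.17 with siSMYD3#1 and -0.32 ± 0.17 with siSMYD3#2 (adjusted p = 0.532 and 0.594, edgeR), with 95% intervals from -0.66 to 0.08 and from -0.69 to 0.05. In each of these comparisons 0 of 3 members were called, where 1.43% of genes were called with siSMYD3#1 and 0.531% with siSMYD3#2, and 0 members passed at an unadjusted p under 0.05 or with DESeq2. Whether the effect of an siRNA differed between 24 h and 0 h was tested directly. For Mef2a this difference was -0.69 ± 0.25 with siSMYD3#1 (adjusted p = 0.345, edgeR) and -0.49 ± 0.25 with siSMYD3#2 (adjusted p = 0.529, edgeR). In each, 0 of 3 members were called by edgeR and 0 by DESeq2, and 1 member had an unadjusted p under 0.05, Mef2a for siSMYD3#1 and Mef2d for siSMYD3#2 (-0.30 ± 0.11, adjusted p = 0.315, edgeR), while 0.215% of genes were called for siSMYD3#1 and 0.019% for siSMYD3#2. For Mef2a with siSMYD3#1 the difference passed in 2 alternatives, at -0.67 with no filter on low counts and at -0.79 with NucleoSpin libraries alone (adjusted p = 0.00313 and 0.00875, edgeR), so this call depends on the setting.

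**Figure D2:**
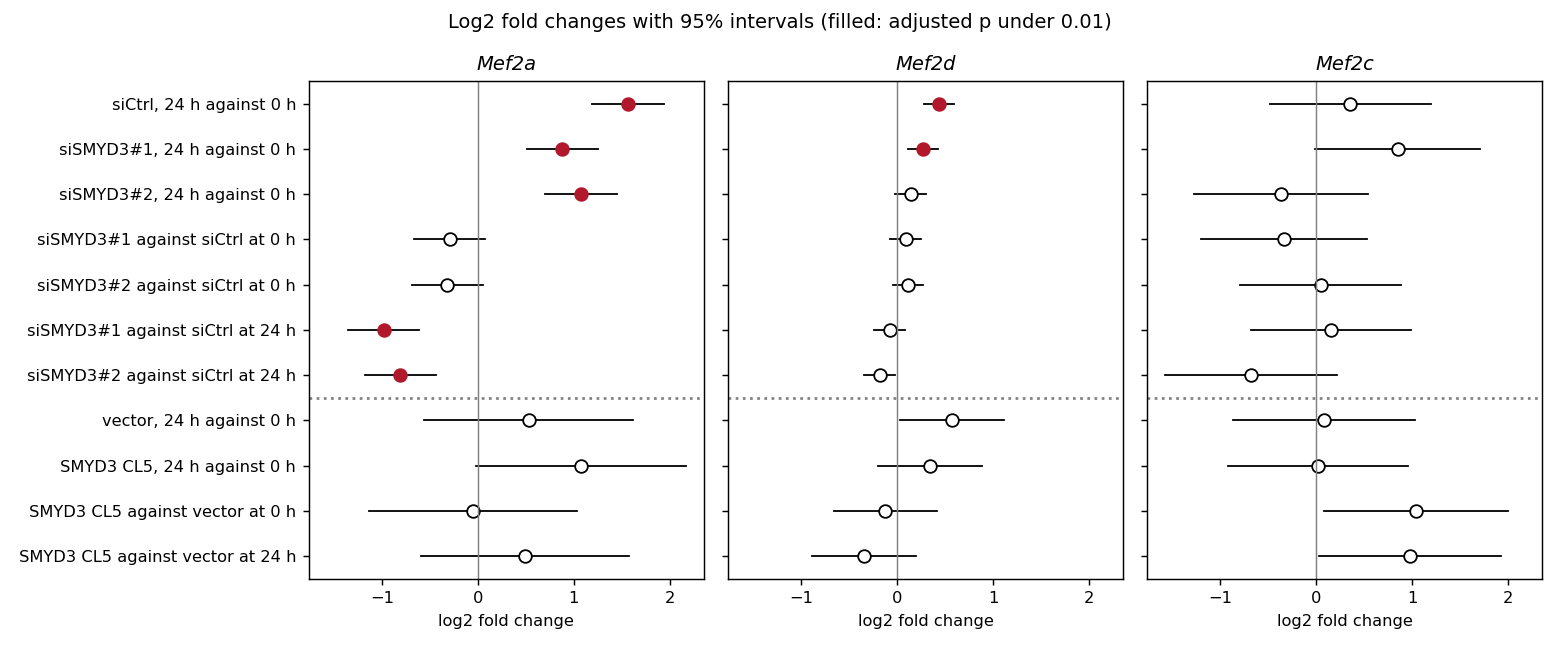
Log2 fold changes of Mef2a, Mef2d and Mef2c. Each point is a fitted log2 fold change for the comparison named at the left, lines are 95% intervals, and filled points have an adjusted p under 0.01; comparisons above the dotted line are from the 18 siRNA libraries and those under it from the 8 overexpression libraries. Mef2a carries 5 filled points and Mef2d 2, all in the siRNA experiment, and Mef2c carries none.

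Mef2d varied much less. Over all 18 siRNA libraries it ran from 90.5 to 131 CPM, against 51.4 to 288 CPM for Mef2a. In siCtrl it stood at 90.5, 95.9 and 97.1 CPM at 0 h and at 126, 128 and 129 CPM at 24 h, without overlap, and rose by 0.44 ± 0.08 (adjusted p = 0.000147, edgeR), a 1.36-fold change. With siSMYD3#1 the values were 93.9, 100 and 108 CPM at 0 h and 116, 118 and 131 CPM at 24 h. That rise of 0.27 ± 0.08 had an adjusted p of 0.009 (edgeR), and it lost the call when any one of 17 of the 18 libraries was left out (0.23 to 0.28) and with the replicate block (adjusted p = 0.0119, edgeR). With siSMYD3#2, at 97.2 to 106 CPM and then 101 to 128 CPM, the values overlapped and the difference of 0.14 ± 0.08 did not pass (adjusted p = 0.165, edgeR). At 0 h Mef2d differed from siCtrl by 0.09 ± 0.08 with siSMYD3#1 and by 0.12 ± 0.08 with siSMYD3#2, neither called (adjusted p = 0.713 and 0.672, edgeR). At 24 h it differed from siCtrl by -0.08 with siSMYD3#1, with a 95% interval from -0.24 to 0.08, and by -0.18 with siSMYD3#2, with an interval from -0.34 to -0.02 (adjusted p = 0.609 and 0.163, edgeR). The interval of the siCtrl rise, 0.28 to 0.60 for Mef2d, lay wholly under that of Mef2a, 1.19 to 1.94.

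Both genes had at least 1142 counts in every library, and their ratio can be read without any scaling between libraries. The ratio of Mef2a to Mef2d counts was 0.683 to 1.19 in siCtrl at 0 h and 1.89 to 2.28 at 24 h. It was 1.03 to 1.13 with siSMYD3#1 and 1.21 to 1.42 with siSMYD3#2 at 24 h, so each siSMYD3 library at 24 h lay under each siCtrl library. At 0 h the ratios with siSMYD3#1, 0.474 to 0.918, and with siSMYD3#2, 0.520 to 0.937, overlapped those of siCtrl. These ratios are given without a test.

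Mef2c, the member most often tied to muscle development, was barely detected in the siRNA experiment, with 10 to 62 counts per library. In siCtrl it was at 0.699, 1.03 and 1.17 CPM at 0 h and at 0.493, 1.62 and 1.89 CPM at 24 h. The TRIzol library was the lowest of its condition in 5 of the 6 siRNA conditions, and at 24 h with siSMYD3#1 it held 0.307 CPM against 2.18 and 2.26 CPM in the NucleoSpin libraries. Extraction entered the fit as a covariate. Neither the change in siCtrl, 0.36 ± 0.40, nor the differences at 24 h of 0.15 ± 0.40 with siSMYD3#1 and -0.68 ± 0.43 with siSMYD3#2 passed the test (adjusted p = 0.501, 0.869 and 0.385, edgeR). The intervals were wide, from -0.68 to 0.98 for siSMYD3#1 and from -1.57 to 0.22 for siSMYD3#2. Over time Mef2c gave 0.85 ± 0.41 with siSMYD3#1 (adjusted p = 0.111, edgeR) and -0.37 ± 0.43 with siSMYD3#2 (adjusted p = 0.548, edgeR), and with NucleoSpin libraries alone the siSMYD3#1 value was 1.2 and passed (adjusted p = 0.00951, edgeR).

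Mef2b, the member known from lymphoid cells, had 0 to 10 counts in each of the 26 libraries and was tested in neither experiment. In siCtrl it had 1, 2 and 6 counts at 0 h and 1, 5 and 9 at 24 h. With siSMYD3#1 it had 0 counts in all 3 libraries at 0 h, where 3 counts would correspond to at most 0.158 CPM, and 5, 9 and 10 counts at 24 h. With siSMYD3#2 it had 2, 3 and 3 counts and then 3, 3 and 5. Only 7 of 18 siRNA libraries and 2 of 8 overexpression libraries held more than 3 counts, so no direction is given, and this limit covers counting error only.

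To set the members beside each other, CPM was divided by the length of all annotated exons in kb. On this scale Mef2d led in every condition. In siCtrl at 0 h it was at 15.8 ± 0.585 CPM per kb (SD, n = 3), Mef2a at 6.13 ± 1.5, Mef2c at 0.0615 ± 0.0154 and Mef2b at 0.0505 ± 0.0236. Mef2c and Mef2b did not differ beyond their spread, and both were far under the other two. At 24 h Mef2d was at 21.4 ± 0.257 and Mef2a at 18 ± 1.58 CPM per kb, with Mef2b at 0.200 ± 0.200 and Mef2c at 0.0850 ± 0.0473. As a share of the summed family level, Mef2a thus went from 27.6 ± 5.48% to 45.3 ± 2.1% in siCtrl, and at 24 h it held 30.5 ± 0.836% with siSMYD3#1 and 34.6 ± 1.89% with siSMYD3#2 (SD, n = 3 each). The order of Mef2a and Mef2d is not fixed by these data. Divided by the longest transcript instead, which is 5538 bases for Mef2a rather than 14681, Mef2a held 47.4 ± 6.94% at 0 h and 66.3 ± 1.85% at 24 h in siCtrl, so that it led at 24 h, and gene counts do not say which transcripts were used. With either length the Mef2a share at 24 h was below that of siCtrl, here 51.0 ± 0.891% with siSMYD3#1 and 55.8 ± 2.05% with siSMYD3#2. Mef2b and Mef2c together stayed a small part of the siRNA libraries on either scale, with mean shares of at most 0.962% for Mef2b and 0.543% for Mef2c.

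**Figure D3:**
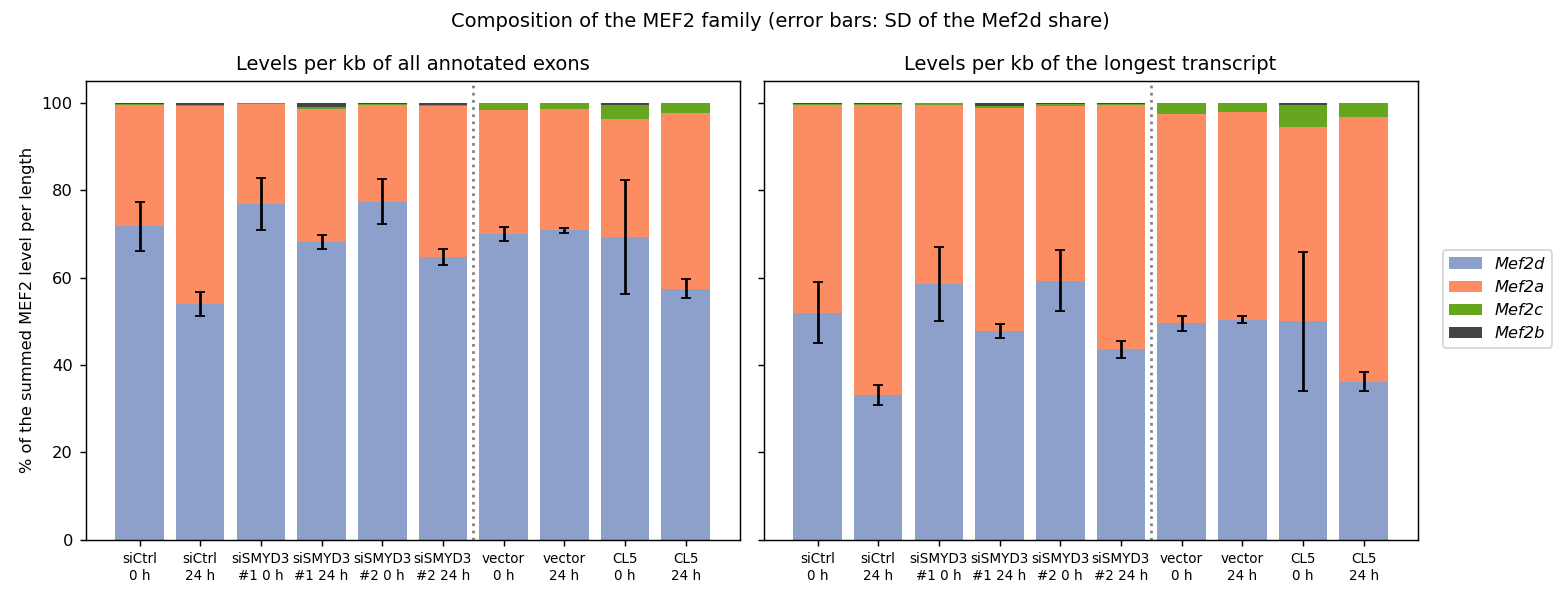
Make-up of the MEF2 family by condition. Bars give the mean percent of the summed MEF2 level that each member takes, per kb of all annotated exons at the left and per kb of the longest transcript at the right, with the SD of the Mef2d share over libraries as error bars and a dotted line between the experiments. In both panels the Mef2a share in siCtrl at 24 h, 45.3% or 66.3%, is above that of either siSMYD3 group at 24 h.

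In the overexpression experiment no member was called. Mef2a was at 93.4 and 96.2 CPM in the vector at 0 h and at 118 and 156 CPM at 24 h. In SMYD3 CL5 it was at 46.1 and 137 CPM at 0 h and at 164 and 221 CPM at 24 h. The CL5 libraries at 0 h thus lay on either side of the vector libraries, while at 24 h both CL5 libraries were above both vector libraries. The change between the times was 0.53 ± 0.47 in the vector and 1.08 ± 0.47 in SMYD3 CL5 (adjusted p = 0.887 and 0.785, edgeR). Without CL5 replicate 1 at 0 h, the library at 137 CPM, the change in SMYD3 CL5 was 2.04 and passed (adjusted p = 0.00465, edgeR). SMYD3 CL5 differed from the vector by -0.05 ± 0.46 at 0 h, with an interval from -1.14 to 1.03, and by 0.49 ± 0.47 at 24 h, with an interval from -0.59 to 1.58 (adjusted p = 0.961 and 0.761, edgeR). Without the CL5 library at 46.1 CPM the 0 h difference was 0.56, and without the one at 137 CPM it was -0.98, neither of them called. The CL5 library low in Mef2a at 0 h was the one with more Myog, at 81.9 against 15.9 CPM.

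Mef2d gave 91.7 and 99.4 CPM in the vector at 0 h and 121 and 162 CPM at 24 h, and 82.6 and 93.0 CPM and then 102 and 121 CPM in SMYD3 CL5. The SMYD3 CL5 differences of -0.12 ± 0.23 at 0 h and -0.35 ± 0.23 at 24 h did not pass (adjusted p = 0.803 and 0.611, edgeR). The ratio of Mef2a to Mef2d counts at 0 h was 0.94 to 1.05 in the vector and 0.558 to 1.47 in SMYD3 CL5, on both sides of the vector. At 24 h it was 0.960 to 0.975 in the vector and 1.61 to 1.83 in SMYD3 CL5, with 2 libraries of each. These ratios carry no test, and how many other pairs of genes separate in this way was not counted. Both libraries of SMYD3 CL5 come from 1 clone, so a property of the clone and the presence of the SMYD3 vector cannot be told apart.

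Mef2c was higher in these lines than in the siRNA libraries. It was at 5.26 and 5.93 CPM in the vector at 0 h, at 4.74 and 7.09 CPM at 24 h, at 7.5 and 15.5 CPM in SMYD3 CL5 at 0 h and at 9.49 and 13.8 CPM at 24 h. All 8 values exceeded those of all 18 siRNA libraries, whose highest was 2.26 CPM, and the 6 TRIzol libraries of that experiment were at 0.307 to 0.869 CPM. The experiments differ in cells and handling, and the level was not tested between them. Both CL5 libraries exceeded both vector libraries at each time, by 1.04 ± 0.41 at 0 h and 0.98 ± 0.41 at 24 h, which did not pass (adjusted p = 0.237 and 0.342, edgeR). Mef2b had 1 to 9 counts. By edgeR 0 of 3 members were called in each of the 5 comparisons, where 1.07% of genes were called for SMYD3 CL5 against the vector at 0 h, 0.964% at 24 h, and 0% for the vector over time, for SMYD3 CL5 over time and for the difference of the SMYD3 CL5 effect between times. At an unadjusted p under 0.05 stood 1 member in the vector over time, Mef2d at 0.57 ± 0.23, and 1 in SMYD3 CL5 against the vector at each time, Mef2c, and 0 members in the other 2 comparisons, and DESeq2 called 0 members in any. Across all 17835 genes tested, the 3 comparisons at 0% held 1256, 1137 and 312 genes at an unadjusted p under 0.05, in that order, and DESeq2 called 119, 109 and 2.

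Among the bHLH partners, Myog, which encodes myogenin, moved most. In siCtrl it was at 0.184, 1.10 and 1.87 CPM at 0 h and 55.6, 222 and 262 CPM at 24 h, and rose by 7.25 ± 0.38 on the log2 scale (adjusted p = 8.45e-09, edgeR). The low library at each time was again the TRIzol one. At 24 h it fell by 3.59 ± 0.30 with siSMYD3#1, to 5.64, 17.2 and 19.8 CPM (adjusted p = 5.4e-06, edgeR). With siSMYD3#2 it fell by 1.81 ± 0.28, to 31.1, 45.2 and 48.6 CPM (adjusted p = 0.00125, edgeR). Of the 7 partners 3 rose in siCtrl, where 14.6% of all genes rose. Beside Myog these were the E proteins Tcf4, by 1.02 ± 0.14, and Tcf12, by 0.64 ± 0.14. Myf5 and Myf6 had values of 0.31 and 1.07 and did not pass, nor did Myod1 at -0.25 and the E protein Tcf3 at -0.10. At 24 h edgeR called Myog alone of the 7 with either siRNA, where 2.94% of all genes fell with siSMYD3#1 and 2.04% with siSMYD3#2. With siSMYD3#2 that call was lost without either NucleoSpin library of siSMYD3#2 at 24 h (-1.61 and -1.57, adjusted p = 0.0135 and 0.0133, edgeR), in 1 fit of all 26 libraries (-1.78, 0.0296) and with no extraction term (-2.11, 0.242), and with siSMYD3#1 it was lost with no extraction term (-3.67, 0.0233). Among the others, the differences for Myod1, -0.41 with siSMYD3#1 and -0.94 with siSMYD3#2, for Myf5, -0.36 and -0.31, for Myf6, -0.31 and -1.09, for Tcf3, 0.32 and 0.10, for Tcf4, 0.18 and -0.25, and for Tcf12, -0.29 and -0.27, did not pass. With NucleoSpin libraries alone, edgeR called 1 of the 7 partners as higher and 1 as lower with siSMYD3#1 at 24 h. It called 2 as lower with siSMYD3#2, so the number of partners called depends on the setting. In SMYD3 CL5 at 0 h Myog was called at 6.86 ± 0.89 above the vector (adjusted p = 0.00885, edgeR), and at 24 h its 3.82 ± 0.73 was not (adjusted p = 0.0376, edgeR). The 0 h call was lost when any one of 6 of the 8 libraries was left out, those of the vector and of SMYD3 CL5 at 24 h, with adjusted p of 0.0247 to 0.101 (edgeR). The other 6 partners were not called in SMYD3 CL5 at 0 h or 24 h by edgeR. The largest of their values at 0 h were -2.69 ± 0.43 for Myf5 and 1.79 ± 0.36 for Myod1 (adjusted p = 0.0181 and 0.0392, edgeR). At 24 h Myf5 was at -0.93 ± 0.41 and Myod1 at 1.48 ± 0.35 (adjusted p = 0.368 and 0.0775, edgeR). DESeq2 called 2 partners as higher and 1 as lower at 0 h, and 2 as higher at 24 h, Myog counted among the 7.

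The corepressors were 4 class IIa deacetylases and Cabin1. In siCtrl 3 of 5 rose and 0 fell, where 14.6% of all genes rose and 14.8% fell, with a median of 0.57 against 0.027 over all genes. With no extraction term 1 of 5 rose in siCtrl. Over time with siSMYD3#1 4 of 5 rose, where 12.7% of all genes rose, and 1 of 5 rose with no extraction term. Over time with siSMYD3#2 1 of 5 rose, where 9.11% of all genes rose. In siCtrl Hdac9, itself a MEF2-responsive gene, rose by 2.05 ± 0.36, Hdac4 by 0.99 ± 0.15 and Hdac5 by 0.57 ± 0.10. At 24 h 1 rose with siSMYD3#1, Hdac7 by 0.69 ± 0.15, and with siSMYD3#2 0 were called by edgeR and 1 fell by DESeq2. Of all genes, edgeR called 5.85% with siSMYD3#1 at 24 h and 3.7% with siSMYD3#2. Of 7 coactivators, 2 rose and 1 fell in siCtrl, where 14.6% of all genes rose and 14.8% fell. With no extraction term 0 rose. Those that rose were the acetyltransferase gene Kat2b, by 0.89 ± 0.14, and the TEAD cofactor Vgll2, by 0.91 ± 0.21. The arginine methyltransferase gene Carm1 fell by 0.60 ± 0.09. With siSMYD3#1 at 24 h Vgll2 fell by 1.26 ± 0.21 and Carm1 rose by 0.41 ± 0.09, and with siSMYD3#2 0 of 7 were called by edgeR and 1 rose by DESeq2. Of 13 kinases and phosphatase subunits tested, 2 rose in siCtrl, where 14.6% of all genes rose, with a median of 0.10. They were the calcineurin catalytic subunit Ppp3ca, at 0.71 ± 0.08, and the HDAC kinase Sik1, at 0.50 ± 0.13. At 24 h with siSMYD3#1 0 of 13 were called by edgeR and 1 rose by DESeq2, and 1 fell with siSMYD3#2, the p38 activator Map2k6, by 0.67 ± 0.12.

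Splicing factors that set muscle exons, those of MEF2 genes among them, changed in siCtrl in 4 of 4 cases, where 29.4% of all genes were called. With no extraction term 2 rose and 1 fell. Srpk3, a muscle kinase of splicing factors and a known MEF2 target, rose by 5.19 ± 0.39, Rbfox1 by 5.58 ± 0.76 and Rbfox2 by 0.55 ± 0.08, and the repressor of muscle exons Ptbp1 fell by 0.88 ± 0.11 (adjusted p = 5.39e-06 for Ptbp1, edgeR). At 24 h Srpk3 fell by 2.44 ± 0.31 with siSMYD3#1, where 2.94% of all genes fell, and by 1.99 ± 0.31 with siSMYD3#2, where 2.04% fell. The other 3 were not called with either. With no extraction term 0 of 4 were called with siSMYD3#2. Counts per gene do not show the exons, so MEF2 isoforms were not measured.

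Genes with a known MEF2 site in a control region were described next. The list was chosen with earlier results of these data known and holds many muscle differentiation genes, Myog among them. Their changes therefore do not measure MEF2 activity. Of 27 such genes 24 were tested in the siRNA libraries, since Myl2, Meg3 and Abra were too low. In siCtrl 17 of 24 rose and 0 fell, where 14.6% of all genes rose and 14.8% fell. The median was 2.59 against 0.027 over all genes. Ckm, muscle creatine kinase, rose by 9.53 ± 0.40 (a fitted value that depends on the prior count, since it had 0 to 3 counts at 0 h), Myl1, a myosin light chain, by 6.59 ± 0.30, and Hrc, a calcium-binding protein of the sarcoplasmic reticulum, by 6.33 ± 0.38, beside Myog and Srpk3. Over time with siSMYD3#1 14 of 24 rose and 0 fell, where 12.7% of all genes rose and 12.7% fell. Over time with siSMYD3#2 12 of 24 rose and 1 fell, where 9.11% of all genes rose and 9.88% fell. The medians of these changes over time were 1.51 and 1.48. Against siCtrl at 24 h, 13 of 24 were lower with siSMYD3#1 and 0 higher, where 2.94% of all genes were lower and 2.91% higher. The median was -1.58 against -0.001 over all genes. Ckm fell by 3.80 ± 0.25, Hrc by 3.51 ± 0.31, Myl1 by 2.55 ± 0.23, Tnnc1, slow and cardiac troponin C, by 2.71 ± 0.29, and Myog as given above. With siSMYD3#2 11 of 24 were lower than in siCtrl at 24 h and 0 higher, where 2.04% of all genes were lower and 1.66% higher. The median was -1.42 against -0.004. Ckm fell by 2.26 ± 0.23, Hrc by 2.39 ± 0.29, Myl1 by 1.72 ± 0.22, Xirp2, an actin-binding repeat protein, by 1.6 ± 0.24, and Tnni1, slow troponin I, by 2.05 ± 0.27. Both counts against siCtrl share the siCtrl libraries. Leaving out 1 library gave 8 to 13 with siSMYD3#1, with 8 without siCtrl replicate 3 at 24 h, and 7 to 13 with siSMYD3#2, with 7 without either NucleoSpin library of siSMYD3#2 at 24 h, the NucleoSpin libraries alone gave 15 and 17, and no extraction covariate gave 7 and 2. At 0 h 0 of 24 were called with either siRNA by edgeR or DESeq2. Among all genes edgeR called 1.43% with siSMYD3#1 and 0.531% with siSMYD3#2 at that time.

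**Figure D4:**
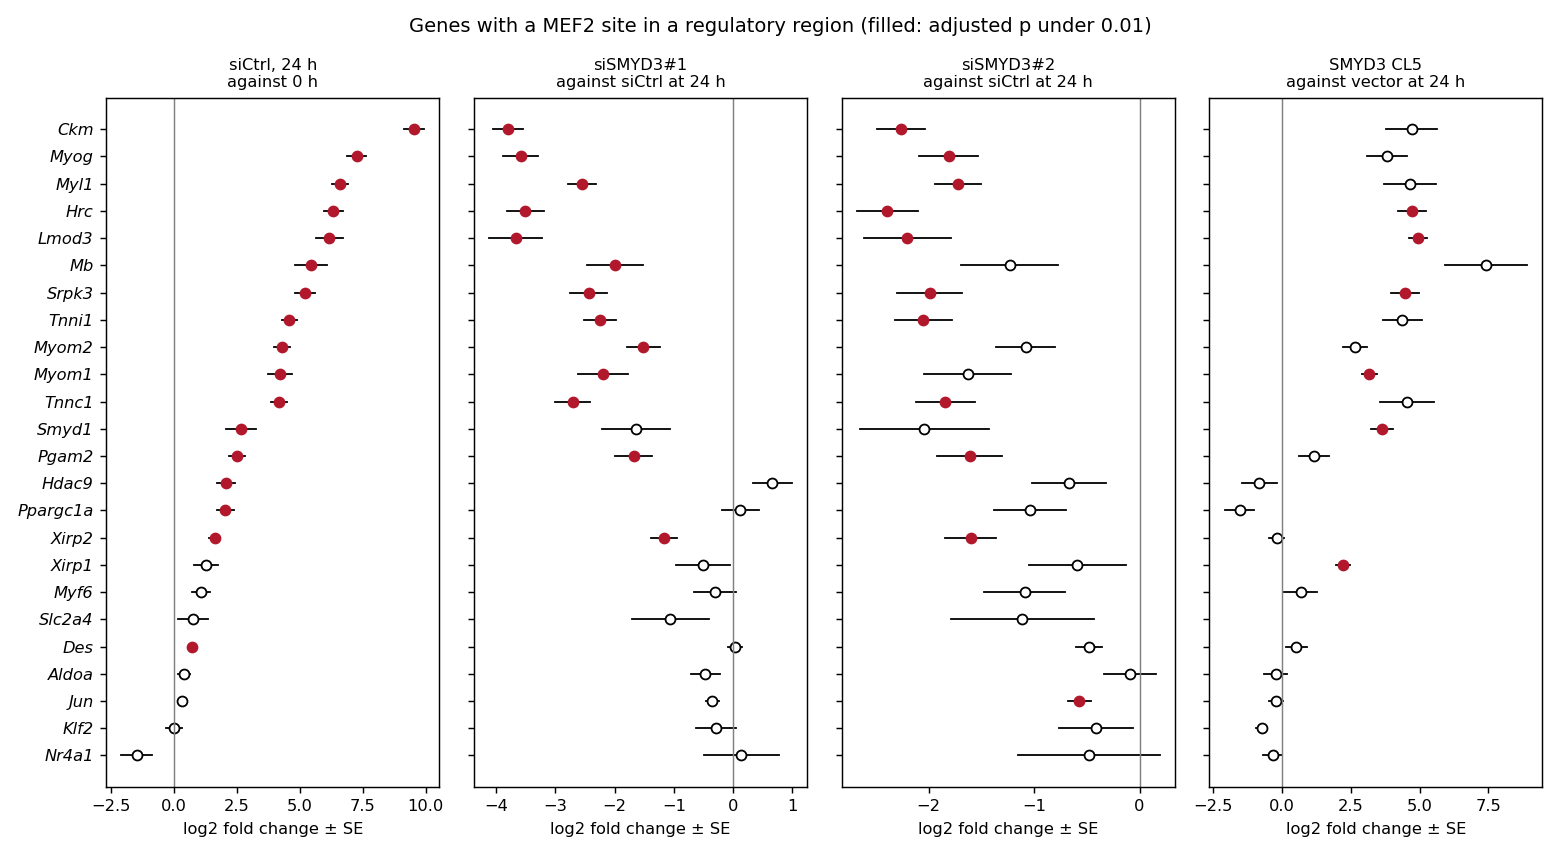
The 24 genes with a MEF2 site in a control region that were tested in the siRNA libraries. Points give log2 fold changes with their SE for the comparison above each panel, each on its own x axis, ordered by the change in siCtrl, and filled points have an adjusted p under 0.01. Of these, 17 are filled in siCtrl over time, 13 for siSMYD3#1 and 11 for siSMYD3#2, the latter 2 sets all to the left of 0, and the fourth panel gives SMYD3 CL5 against the vector at 24 h, with 6 filled to the right of 0.

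In SMYD3 CL5 24 of the 27 were tested, Abra entering and Slc2a4 dropping out. Against the vector, 0.465% of all genes were higher and 0.606% lower at 0 h, and 0.376% and 0.589% at 24 h. Of the 24, 6 were higher and 0 lower at 0 h, with a median of 3.30 against -0.025 over all genes. At 24 h 6 were higher and 0 lower, with a median of 2.91 against 0.015. At 24 h they were Lmod3, a thin-filament leiomodin, at 4.95 ± 0.32, the M-band gene Myom1 at 3.18 ± 0.27, Hrc at 4.72 ± 0.50, the muscle methyltransferase gene Smyd1 at 3.64 ± 0.40, Xirp1, a relative of Xirp2, at 2.23 ± 0.26, and Srpk3 at 4.47 ± 0.52. At 0 h they were Lmod3 at 6.36 ± 0.38, Myom1 at 3.39 ± 0.28, Smyd1 at 5.04 ± 0.44, Xirp1 at 2.67 ± 0.27, Hrc at 4.43 ± 0.52 and Myog. In the vector over time 0 of 24 were called by edgeR and 6 by DESeq2, and in SMYD3 CL5 over time 0 by edgeR and 2 by DESeq2. At 0 h and 24 h DESeq2 called 13 and 14 as higher, 1 fit of all 26 libraries 15 and 14, and the replicate block 9 and 10. The counts also change with single libraries. At 0 h the count of higher genes was 0 without either vector library of that time, 15 and 11 without CL5 replicate 1 or 2 at 0 h, and 3 without any library of 24 h. At 24 h it was 0 without any library of that time, 14 without either CL5 library at 0 h, and 2 and 1 without vector replicate 1 or 2 at 0 h. No MEF2 member was called in any of these comparisons, Mef2a included.

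The genes whose levels ran most like each member over the 18 siRNA libraries, after the mean of each extraction method was taken off, were ranked among 9095 protein-coding genes with a mean of at least 10 CPM. For Mef2a they were Fam8a1 (Pearson's r = 0.975), the RNA-binding gene Celf2 (0.974) and the mitochondrial exchanger gene Slc8b1 (0.971). Their differences at 24 h with siSMYD3#1 were -0.43, -0.57 and -0.63 on the log2 scale, of which those of Fam8a1 and Slc8b1 passed (adjusted p = 0.00673 and 0.00399, edgeR). With siSMYD3#2 they were -0.31, -0.48 and -0.44, and none of the 3 passed (adjusted p = 0.0576, 0.102 and 0.0435, edgeR). For Mef2d they were the smooth muscle actin gene Acta2 (0.977), Lrpap1 (0.957) and the junctophilin gene Jph2 (0.949), whose difference at 24 h was -0.54 with siSMYD3#1 (adjusted p = 0.0743, edgeR) and -1.18 with siSMYD3#2 (adjusted p = 0.000938, edgeR). Acta2 and Lrpap1 passed with neither siRNA. For Mef2c, ranked among 9096 genes, they were Ppp2r5a (0.834), Zfp398 (0.812) and Dusp8 (0.806). Between members r was 0.811 for Mef2a with Mef2d, 0.182 for Mef2a with Mef2c and 0.184 for Mef2c with Mef2d. The libraries share treatments and times, so these values describe likeness over the conditions and carry no test.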

How the data were processed

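RNA-Seq was measured in 26 libraries. Per the labels and the study's methods, stranded mRNA libraries were read as pairs, aligned to GRCm38 with HISAT2 2.1.0 and counted per gene with featureCounts (Subread 1.6.3), and the authors deposited raw counts per gene; handling of reads shared by genes is not given in the sources used here. Of 55341 genes, 54495 were named by GENCODE M21. Counts were tested with edgeR 4.0.16 (R 4.3.3): filterByExpr, TMM and robust quasi-likelihood fits, separately for 18 siRNA libraries (6 groups plus extraction, 15820 genes) and 8 overexpression libraries (4 groups, 17835 genes), with Benjamini-Hochberg adjustment over all genes and a threshold of 0.01. SE is the log2 fold change over the root of F. The fits were tested on simulated data. Alternatives were DESeq2 1.42.0, RLE scaling, no low-count filter, 1 fit for 26 libraries, the replicate block, no extraction term, NucleoSpin libraries alone and each library left out. The block used the replicate numbers of the study's library table, whose number for the TRIzol set differs from that in its principal component legend; numbers of left-out libraries in the text are in sample order within a group. Deviations of same-numbered libraries from their group means, in log2 CPM, correlated between groups at 0.335 to 0.898 in the siRNA experiment. Within NucleoSpin alone these correlations were -0.179 to 0.337. Members and gene lists were chosen with earlier results of these data known. Named were the 4 members, all bHLH partners, up to 5 genes of each other list with the smallest adjusted p under 0.01, and the 3 genes most like each member (log2 CPM, prior count 2). Aldoa was taken at the gene ID with more counts. Ranges of counts per library are in the text; floors of 3 counts cover counting error only.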

Additional observations from a re-analysis of the deposited data

Results flagged for a closer look

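No member of the MEF2 family met a rule for a closer look. Among the listed genes, the effect of siSMYD3#1 differed between 24 h and 0 h for 2 genes with a MEF2 site in a control region. This was by the test of the difference itself, which called 0.215% of all genes. Tnni1, slow troponin I, had a difference of -2.75 on the log2 scale (adjusted p = 0.00515, edgeR) and Tnnc1, slow and cardiac troponin C, one of -2.92 (adjusted p = 0.00392, edgeR). Smyd3 mRNA did not pass the test for a fall in these siSMYD3#1 libraries. Both calls depend on the setting. The Tnni1 call was lost when any one of 13 of the 18 libraries was left out (adjusted p of 0.0104 to 0.0247, edgeR) and the Tnnc1 call for 10 (0.0109 to 0.0216), the TRIzol libraries of siCtrl at 0 h and of siSMYD3#1 at both times among them. Of the 24 genes with a MEF2 site, 0 were called with no extraction term and 0 in 1 fit of all 26 libraries, 5 with NucleoSpin libraries alone and 7 with DESeq2.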

How the results depend on the processing

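Over the members and all comparisons, 868 of 943 values under an alternative kept direction and side of the threshold, 49 lost the call, 4 gained it (Mef2a over time in SMYD3 CL5, 2 for its siSMYD3#1 difference between times, and Mef2c over time with siSMYD3#1) and 22 changed direction. The Mef2a rise in siCtrl held in all 25 alternatives, from 1.41 to 1.66 on the log2 scale, and that of Mef2d from 0.38 to 0.48. Mef2a at 24 h with siSMYD3#1 lost the call in 1 fit of all 26 libraries (-0.98, adjusted p = 0.0419, edgeR) and with no extraction term (-0.99, 0.0308), and ranged from -1.12 to -0.92 with 1 library left out. With siSMYD3#2 it lost the call with RLE scaling (-0.80, 0.0109), all 26 libraries (-0.81, 0.146), the replicate block (-0.81, 0.0123) and no extraction term (-0.83, 0.0985), and ranged from -1.08 to -0.68 with 1 library left out. The replicate block also ended the Mef2d rise with siSMYD3#1 (0.27, adjusted p = 0.0119, edgeR) and changed no other call of a member; the shared numbers run with extraction and passage. The cause was not tested.

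Changes of direction were in values never called. With 1 library left out, Mef2c ranged from -0.061 to 0.55 with siSMYD3#1 at 24 h, from -0.29 to 0.41 with siSMYD3#2 at 0 h (-0.028 with NucleoSpin alone), from -0.24 to 0.34 in the vector over time, from -0.42 to 0.62 in SMYD3 CL5 over time (-0.000442 with DESeq2, -0.000581 with RLE, -0.0039 with no filter) and from -0.50 to 0.55 for the difference between times (0.0216 with the block). Mef2a ranged from -0.33 to 0.10 between the siSMYD3 siRNAs, from -0.98 to 0.56 for SMYD3 CL5 at 0 h (0.013 in 1 fit of all libraries) and from -0.051 to 1.52 for the difference between times. Leaving out an overexpression library leaves 1 in its group, which is then assumed to vary like the others.

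The number of genes called moved by over 1.5 times. It was 4655 in siCtrl over time and 1676 with no extraction term, 926 for siSMYD3#1 at 24 h (102 with no extraction term, 1772 with NucleoSpin alone), 586 for siSMYD3#2 (18 and 1275), 191 for SMYD3 CL5 at 0 h (0 without vector replicate 2, 2369 without CL5 replicate 1) and 172 at 24 h (0 without CL5 replicate 1, 1334 in 1 fit of all libraries). Mef2b had too few counts to be tested. Mef2c had wide intervals, with 10 to 62 counts per siRNA library and 189 to 775 per overexpression library.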
